A study of Mus musculus with 8 samples.

Results

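Iron handling and metallothionein genes were examined in the livers of newborn mice that lack glycerol kinase. The genes are the metallothioneins Mt1 and Mt2, hepcidin (Hamp), transferrin receptor 2 (Tfr2), transferrin (Trf), ferroportin (Slc40a1), the iron importers Slc11a2 and Slc39a14, ceruloplasmin (Cp) and the ferritin heavy chain (Fth1). They were chosen by gene symbol, and 9 of the 10 had probe sets of their own among the 18193 genes named on the array. The single probe set annotated to Trf is annotated to Srprb as well, so Trf was not analysed here. The 9 genes had 27 probe sets, groups of short probes that read 1 stretch of a transcript. Livers of 4 knockout pups and 4 wild-type littermates, all labelled as male inbred C57BL/6J mice on day of life 3, were each hybridised to an Affymetrix Mouse 430 2.0 array. The labels give no further detail of the allele, and no probe set used here is annotated to the glycerol kinase gene, so its level did not check the labels.

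Liver cells store iron in ferritin, take it up through Slc39a14 and Slc11a2, and make most of the transferrin and ceruloplasmin of the blood. Hepatocytes also secrete hepcidin, a peptide hormone that binds ferroportin, the only known iron exporter of mammalian cells, and has it degraded. Hamp is switched on by BMP and SMAD signalling when iron is plentiful and by interleukin 6 and STAT3 in inflammation, and Tfr2 is part of the sensing of iron-loaded transferrin. Metallothioneins are small cysteine-rich proteins that bind zinc and copper. They are abundant in newborn rodent liver, and metals, through the factor MTF1, and glucocorticoids induce them.

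Some arrays stood apart, and values by set of replicates or without an array are given where they differ much. Wild type 4 is labelled male but had an Xist signal of 10506, against 196 to 396 on the other arrays, and an Eif2s3y signal of 1.3 against 685 to 1164. Replicates 1 and 2 of both genotypes differed from replicates 3 and 4 in how far the 3' probes of the transferrin receptor control outshone the 5' ones (a ratio of 6.50 to 6.72 against 4.21 to 4.83), and they are called the first and second set here. The 3'/5' ratio of the pyruvate carboxylase control, a measure of RNA integrity, was highest on knockout 1 (7.03) and knockout 2 (4.93) and lay between 2.06 and 3.46 on the other arrays. The brightest 200 probe sets had a median signal of 24444 on knockout 1 and of 19045 to 21337 on the other arrays. Nothing in the labels says whether the pups came from separate litters.

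Knockout and wild-type livers were compared to see which of these transcripts differ when glycerol kinase is missing, and none passed the test. Of the 27 probe sets, 23 reached a signal of 200 on at least 4 arrays and were tested. Over all 20395 tested probe sets, 0.299% were called at a Benjamini-Hochberg adjusted p under 0.05 in limma, 0.147% as higher and 0.152% as lower in the knockout, and of the 23 here 0 were called (adjusted p from 0.345 to 0.986). At an unadjusted p under 0.05 there was 1 (Slc11a2), beside 14.4% of all tested probe sets. Without overlap between the groups there were 0 of 23, against 9.32% of all tested. An exact two-sided permutation test of each gene's brightest probe set gave its smallest p, 0.0571, for Tfr2, where 4 against 4 arrays can give 0.0286 at the least. The median log2 fold change of the 9 genes was 0.15, knockout minus wild type, beside -0.02 over all 10878 genes tested.

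The 95% intervals bound the differences in measured signal that the arrays could have missed. For 20 of the 23 probe sets the interval of the fold lay within a 2-fold change either way, and for 13 within 1.5-fold. The 3 wider ones were both probe sets of Hamp and the dimmest tested one of Slc39a14. The number of arrays limits this precision. Since whole livers were measured, fewer cells of a type and less RNA per cell cannot be told apart.

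**Figure D1:**
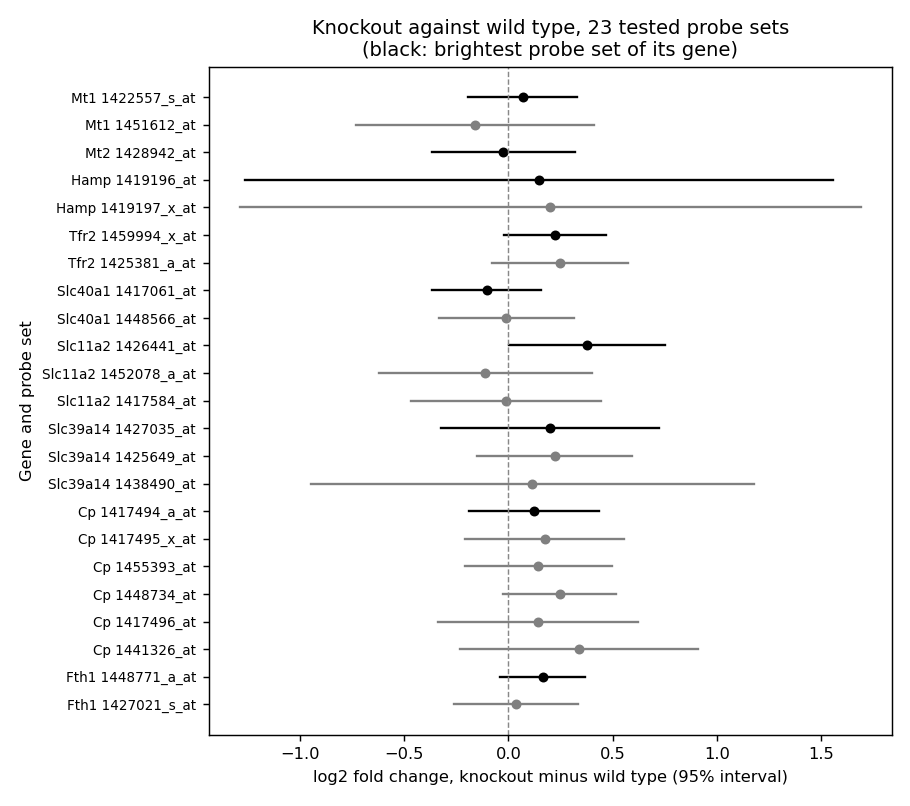
log2 fold changes (knockout minus wild type, x axis) with 95% limma intervals for the 23 tested probe sets (y axis), 4 arrays a group, the brightest probe set of each gene in black. The intervals of Hamp are the widest, and the brightest probe set of Fth1 has the narrowest, -0.04 to 0.37.

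The metallothioneins were bright, and their means lay close together in the genotypes. The brightest Mt1 probe set had signals of 22939, 22432, 26029 and 23160 on wild type 1 to 4 and of 30650, 23557, 25059 and 20699 on knockout 1 to 4. Mt2 had signals of 19139, 19221, 19949 and 20368 on the wild-type arrays and of 27238, 18687, 18472 and 14867 in the knockout. For both genes the knockouts held the highest and the lowest array, knockout 1 and knockout 4, and the wild types lay between them. Mt1 averaged 23640 ± 1622 in wild type and 24991 ± 4183 in the knockout (SD, n = 4), a log2 fold change of 0.07 ± 0.12 (SE; limma adjusted p = 0.834) with an interval of -0.19 to 0.33. Mt2 averaged 19669 ± 592 and 19816 ± 5249 (SD, n = 4), which put its log2 fold change at -0.02 ± 0.16 (SE; limma adjusted p = 0.963; interval -0.37 to 0.32). On these probe sets an increase in signal beyond 1.26-fold in Mt1, or beyond 1.25-fold in Mt2, lies outside the intervals. Whether signal still rises in step with mRNA this close to the top of the array's range was not tested.

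The sign of Mt1 hung on knockout 1 and that of Mt2 on knockout 4. Without knockout 1 the log2 fold change was -0.04 for Mt1 and -0.19 for Mt2, and without knockout 4 it was 0.10 for Mt2. Within the first set it was 0.24 and 0.23, and within the second set -0.11 and -0.28. A test of the difference between sets did not call either gene. Over the 8 arrays Mt1 and Mt2 had a Pearson r of 0.890 (exact permutation p = 0.00992) and a Spearman rho of 0.524 (exact permutation p = 0.197). Adjusted over the 36 pairs of the 9 genes these became 0.179 and 0.545. Without the outermost arrays, knockout 1 and 4, r was 0.011, so the relation rests on those arrays.

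Both metallothionein probe sets lie close to the top of the array's range. Mt1 ranked between 16 and 80 among the 45037 probe sets of an array, and Mt2 between 51 and 248. The other Mt1 probe set, which was dimmer, had 559, 742, 1311 and 1204 on the wild-type arrays and 703, 910, 945 and 691 in the knockout (log2 fold change -0.16 ± 0.26 SE; limma adjusted p = 0.819). The interval of its fold, 0.602 to 1.33, was wider. It did not follow the bright one: knockout 1 was not its highest array, and wild type 3 and 4 were. The genes whose pattern over the 8 arrays was most like Mt1, of 10877 compared, were Uqcrb of respiratory complex III (r = 0.955), the calponin Cnn3 (0.950), Ndufa9 of complex I (0.940), the apolipoprotein Apoc1 (0.931) and the ribosomal protein gene Rps26 (0.931). These r were picked as the highest of many and describe the 8 arrays only. Mt2 ranked 24 in the same order. Each of the 5 genes was also highest on knockout 1, where the brightest probe sets as a whole stood higher. Quantile normalization left Mt1 at 0.003 and Mt2 at -0.10, whereas median centring put them at 0.15 and 0.057. The part of the higher signal of the brightest probe sets in the Mt1 values was not tested.

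Mt2 and Mt1 lie next to each other on mouse chromosome 8, with 5315 bases between them. Their upstream sequences from RefSeq (GRCm38.p6) are shown because metals induce both genes through short metal response elements. The core of such an element was searched as TGCACNC or TGCGCNC on both strands in the 300 bases from 250 before to 50 after the listed start. Matches are in capitals. Mt2 is shown from 250 bases before the start (chr8:94172368-94172617, plus strand) and Mt1 for the last 30 bases before the start (chr8:94179059-94179088, plus strand), since its listed start lies inside the outermost annotation of the gene.
Mt2: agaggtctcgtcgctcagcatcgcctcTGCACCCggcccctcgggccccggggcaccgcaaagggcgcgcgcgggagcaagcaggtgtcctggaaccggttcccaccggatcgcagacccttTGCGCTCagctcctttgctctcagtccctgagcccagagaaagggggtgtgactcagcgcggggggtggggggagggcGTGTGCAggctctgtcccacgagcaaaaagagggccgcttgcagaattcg
Mt1: cccgctgTGCACACtggcgctccagggagc
In the full windows Mt2 held 4 matches and Mt1 held 3, of which 3 and 1 lie before the start. Of 32817 promoter windows of the same length, 25.7% held at least 1 match and 1.97% held at least 3. A match of letters is not a binding site.

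Hamp differed far more between single livers than between genotypes. Its brightest probe set had signals of 3324, 18031, 5454 and 13308 on wild type 1 to 4 and of 17144, 17238, 8099 and 2742 on knockout 1 to 4. Each genotype thus held arrays with high and with low hepcidin mRNA, and the highest array was 6.58 times the lowest. The other probe set ran from 2221 to 17121 and was high on the same 4 arrays, with r = 0.997 between them. The means were 10029 ± 6848 in wild type and 11306 ± 7139 in the knockout (SD, n = 4), a log2 fold change of 0.15 ± 0.64 (SE; limma adjusted p = 0.942). The interval of the fold ran from 0.417 to 2.95, so neither a doubling nor a halving in the knockout lies outside it. Its sign depended on the arrays used: 1.15 in the first set and -0.85 in the second, 0.39 without wild type 4, -0.16 without knockout 1, -0.28 without wild type 1 and 0.72 without knockout 4.

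The spread of Hamp was larger than that of most transcripts on these arrays. Within groups its residual SD of log2 signal was 1.19, against a median of 0.27, and 99.6% of tested probe sets had a smaller one. Fth1 stood at the opposite end, with an SD of 0.11 that exceeded 3.97% of tested probe sets, though its other probe set had 0.21. Tfr2 (0.13), Slc40a1 (0.15), Mt1 (0.18), Cp (0.23), Slc11a2 (0.23) and Mt2 (0.26) lay below the median, and Slc39a14 (0.40) above it. Among the 2040 brightest tested probe sets, 99.9% had a smaller SD than Hamp.

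**Figure D2:**
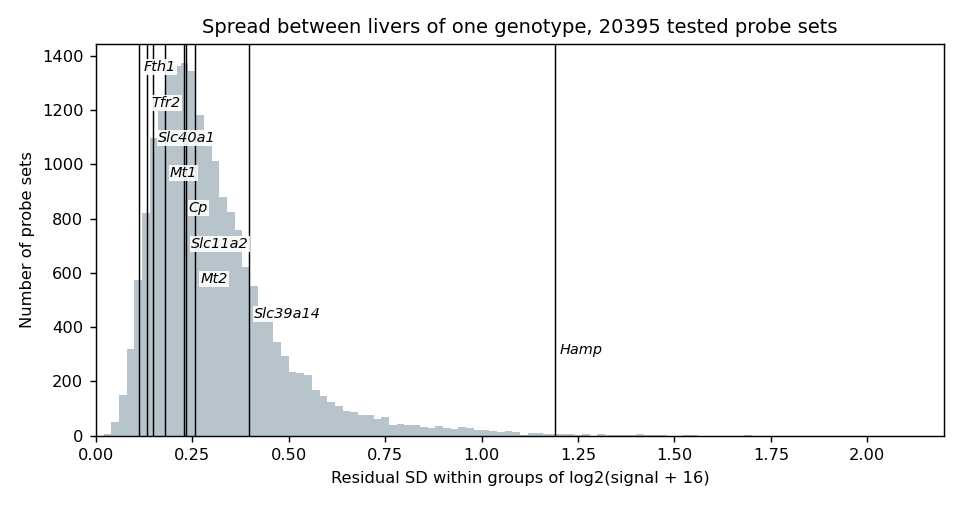
Histogram of the residual SD within groups of log2(signal + 16) (x axis) over the 20395 tested probe sets (y axis, number of probe sets), with lines for the brightest probe set of each of the 9 genes. Hamp, at 1.19, lies far to the right of the other 8, which lie between 0.11 and 0.40.

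The mouse carries a close copy of the hepcidin gene, Hamp2, on the same chromosome, whose peptide is not held to regulate iron. Its tested probe set had 330, 1373, 297 and 580 on the wild-type arrays and 774, 1018, 203 and 257 in the knockout (log2 fold change -0.22 ± 0.57 SE; limma adjusted p = 0.898). The arrays with high Hamp also had high Hamp2: Pearson r was 0.813 (exact permutation p = 0.0215) and Spearman rho 0.833 (exact permutation p = 0.0154). Neither held after adjustment over 37 relations with Hamp (0.199 and 0.190). The other Hamp2 probe set was below the signal minimum. The genes are near-identical, and the tested Hamp2 probe set carries the suffix Affymetrix gave to sets that may cross-hybridise. Its signal from Hamp2 and from Hamp thus cannot be told apart. The dimmer probe set of Hamp and the brighter one of Tfr2 carry the same suffix.

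The upstream sequences of Hamp and Hamp2 from RefSeq (GRCm38.p6) are shown because Hamp responds to BMP signalling through the element GGCGCC. Both are the 250 bases before the listed start on the minus strand, Hamp at chr7:30944030-30944279 and Hamp2 at chr7:30924182-30924431. Capitals mark GGCGCC in Hamp and the bases aligned to it in Hamp2.
Hamp: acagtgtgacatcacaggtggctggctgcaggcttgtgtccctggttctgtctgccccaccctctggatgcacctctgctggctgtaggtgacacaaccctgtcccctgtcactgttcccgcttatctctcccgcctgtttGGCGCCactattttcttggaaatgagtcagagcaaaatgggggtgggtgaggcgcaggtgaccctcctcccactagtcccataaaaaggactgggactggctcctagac
Hamp2: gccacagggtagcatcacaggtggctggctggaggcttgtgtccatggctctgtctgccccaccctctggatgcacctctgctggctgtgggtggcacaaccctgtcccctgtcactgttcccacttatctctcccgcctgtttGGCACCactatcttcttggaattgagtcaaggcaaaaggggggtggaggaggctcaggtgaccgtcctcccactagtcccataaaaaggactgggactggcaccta
The 300-base windows were identical at 92.9% of 297 aligned bases. The element, which reads the same on both strands, begins 109 bases before the Hamp start, and the aligned letters in Hamp2 are GGCACC. It occurred in 11.9% of 32817 promoter windows of the same length.

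Targets of BMP and SMAD signalling were set beside Hamp on the same arrays. Id1, a helix-loop-helix inhibitor, had 891, 1593, 1034 and 1363 on the wild-type arrays and 2055, 1748, 1162 and 1057 in the knockout. Smad6, an inhibitory SMAD, had 302, 554, 438 and 523 on the wild-type arrays and 658, 528, 430 and 434 in the knockout. Wild type 2 and 4 and knockout 1 and 2, the arrays with the most Hamp, were also the highest 4 for both genes. For Id1 Pearson r with Hamp was 0.897 (exact permutation p = 0.00414) and Spearman rho 0.833 (exact permutation p = 0.0154), and for Smad6 they were 0.825 (exact permutation p = 0.00677) and 0.810 (exact permutation p = 0.0218). Leaving out the outermost Hamp arrays, wild type 1 and knockout 4, gave r of 0.910 and 0.839. Over the 37 genes compared with Hamp, regulators, acute phase genes and Hamp2, 0 relations passed after adjustment (Pearson adjusted p = 0.125 for Id1 and for Smad6, Spearman 0.190 and 0.201). Smad7, the other inhibitory SMAD of the list, had r = 0.372 (exact permutation p = 0.361), or 0.775 without those 2 arrays, and the acute phase gene Crp 0.168 (exact permutation p = 0.674). Other genes had similar values: 7 of the 37 had an unadjusted Pearson p under 0.05 (exact permutation), namely Id1, Smad6, Hamp2, Jak1, Stat3, Hfe and Lcn2. The share of all tested genes under that p was not computed. Jak1, a kinase of interleukin 6 signalling, had r = 0.806 (exact permutation p = 0.0181), or 0.925 without those 2 arrays. Stat3 had 0.697 (exact permutation p = 0.0381), or 0.095 without them. Among acute phase genes Lcn2 had 0.721 (exact permutation p = 0.0462), or 0.533 without them. Saa3 had 0.715 (exact permutation p = 0.0559), or 0.939 without them. Of the other interleukin 6 signalling genes, Il6st went the other way, at -0.577 (exact permutation p = 0.136), or -0.581 without those arrays. Il6ra had 0.261 (exact permutation p = 0.507) and Socs3 0.221 (exact permutation p = 0.591). Jak1, Stat3, Hfe, Lcn2, Saa3, Il6st, Il6ra and Socs3 were chosen after their values were seen. Id1, Smad6 and Smad7 were outside the rule for naming genes and were added. Id1 and Smad6 had the smallest Pearson p of the 37. Each set holds 4 arrays, too few for a correlation within it.

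**Figure D3:**
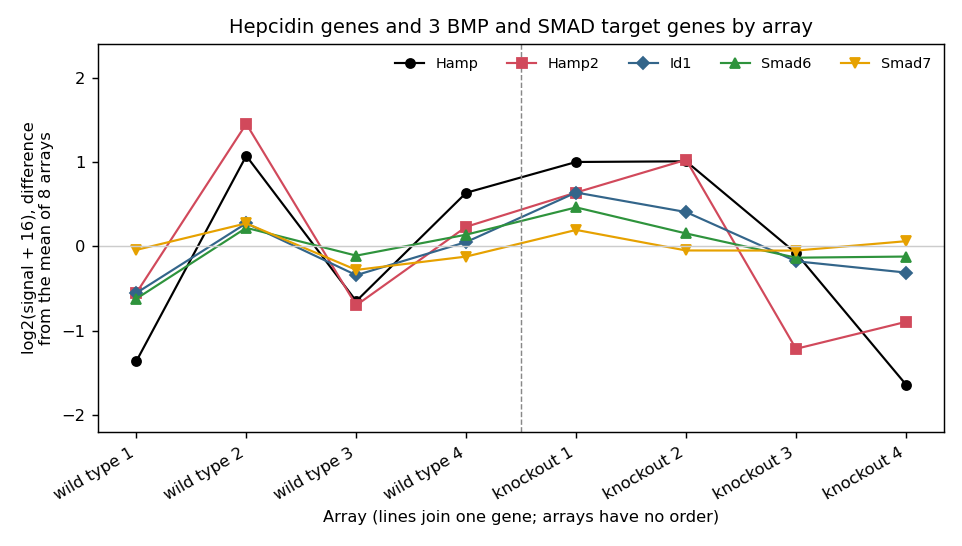
Difference of log2(signal + 16) from the mean of the 8 arrays (y axis) on each array (x axis) for Hamp, Hamp2, Id1, Smad6 and Smad7, wild type left and knockout right of the dashed line. Hamp, Id1 and Smad6 are above their means on wild type 2 and 4 and knockout 1 and 2, and Smad7 varies least.

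The 5 genes most like Hamp over the arrays, of 10877 compared, were Alg5 of protein glycosylation (r = 0.957), the forkhead factor Foxp1 (0.956), the trafficking gene Trappc11 (0.947), the glycogen branching enzyme Gbe1 (0.946) and the Wnt coreceptor Lrp5 (0.944). Lrp5 had the widest range of these, from 106 on wild type 1 to 516 on knockout 2, and 0 of the 5 were called between the genotypes (limma adjusted p from 0.821 to 0.963). They were picked as the highest of many values. Hamp2, with r = 0.813, ranked 150 in the same order.

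Tfr2, which binds iron-loaded transferrin on hepatocytes, had the smallest p of these genes after Slc11a2. Its brighter probe set had 7951, 8911, 9398 and 9505 on the wild-type arrays and 11977, 10095, 10368 and 9410 in the knockout. Of the knockouts 3 lay above every wild type and knockout 4 among them. The means were 8941 ± 709 and 10462 ± 1087 (SD, n = 4), a log2 fold change of 0.22 ± 0.11 (SE; limma adjusted p = 0.389; interval -0.02 to 0.47), and the other probe set stood at 0.25 ± 0.15. The brighter one was at 0.38 in the first set, 0.06 in the second and 0.16 without knockout 1. After quantile normalization it was at 0.10, and after median centring at 0.31.

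No difference passed the test among the genes of iron export. Slc40a1, the exporter that hepcidin acts on, had 7728, 9547, 8910 and 10077 on the wild-type arrays and 9378, 8437, 7525 and 8318 in the knockout. All 4 knockout values lay within the wild-type range but for knockout 3, which was the lowest array. The log2 fold change was -0.10 ± 0.12 (SE; limma adjusted p = 0.731; interval -0.37 to 0.16), with 0.05 in the first set and -0.26 in the second. It was -0.22 after quantile normalization and -0.02 after median centring. The second probe set stood at -0.01 ± 0.15.

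Ceruloplasmin, the copper-bearing ferroxidase that readies exported iron for transferrin, had 8 probe sets, of which 6 were tested. The brightest gave 16480, 19630, 21325 and 21010 on the wild-type arrays and 27811, 21177, 18818 and 18334 in the knockout. Knockout 1 was the highest array and wild type 1 the lowest, and knockout 3 and 4 lay below wild type 2 to 4. Its log2 fold change was 0.12 ± 0.14 (SE; limma adjusted p = 0.741; interval -0.19 to 0.43), and it was -0.01 without knockout 1. The 6 probe sets ran from 0.12 to 0.34. In the first set the brightest stood at 0.43 and in the second at -0.19. A test of that difference gave an unadjusted p of 0.0188 for it and under 0.05 for 4 of the 23 probe sets here (3 of Cp and the dimmer one of Mt1), beside 9.92% of all tested. After adjustment 0 of the 23 were called, beside 0.00981% of all tested (limma adjusted p = 0.490 for these 4).

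Of the importers, Slc11a2, the divalent metal transporter, had the smallest p of the 9 genes. Its brightest probe set had 479, 466, 537 and 409 on the wild-type arrays and 571, 475, 738 and 719 in the knockout. Knockout 1, 3 and 4 lay above all wild types, and knockout 2 lay among them. The means were 473 ± 52.5 and 625 ± 125 (SD, n = 4), a log2 fold change of 0.38 ± 0.17 (SE; limma adjusted p = 0.345; unadjusted p = 0.0498; interval 0.00 to 0.75). The other tested probe sets of the gene did not follow it: they stood at -0.11 ± 0.23 and -0.01 ± 0.21. Slc11a2 is spliced to different 3' ends, and which of them each probe set reads was not analysed here.

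Slc39a14, a zinc and iron transporter that takes up iron not bound to transferrin, had 1536, 2678, 3192 and 2331 on the wild-type arrays and 1975, 3123, 3360 and 2563 in the knockout. The groups overlapped, and replicate 1 was the lowest array of each genotype. The log2 fold change was 0.20 ± 0.24 (SE; limma adjusted p = 0.750), and the other tested probe sets stood at 0.22 ± 0.17 and 0.12 ± 0.48.

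Fth1, the ferroxidase subunit of the ferritin shell, had the smallest residual SD of the genes on its brightest probe set. That probe set ranked between 31 and 78 on the arrays, as close to the top of the range as Mt1. It had 20308, 20356, 22678 and 23298 on the wild-type arrays and 26157, 22202, 25846 and 23039 in the knockout. The means were 21660 ± 1554 and 24311 ± 1986 (SD, n = 4), a log2 fold change of 0.17 ± 0.09 (SE; limma adjusted p = 0.445; interval -0.04 to 0.37). It was 0.09 after quantile normalization and 0.25 after median centring. The other Fth1 probe set stood at 0.04 ± 0.13, and its residual SD was larger, 0.21. Ferritin is controlled mainly at translation, which mRNA arrays do not measure. Tfr2 and Fth1 had a Pearson r of 0.873 (exact permutation p = 0.00337) and a Spearman rho of 0.857 (exact permutation p = 0.0107), with adjusted p of 0.121 and 0.386 over the 36 pairs.

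**Figure D4:**
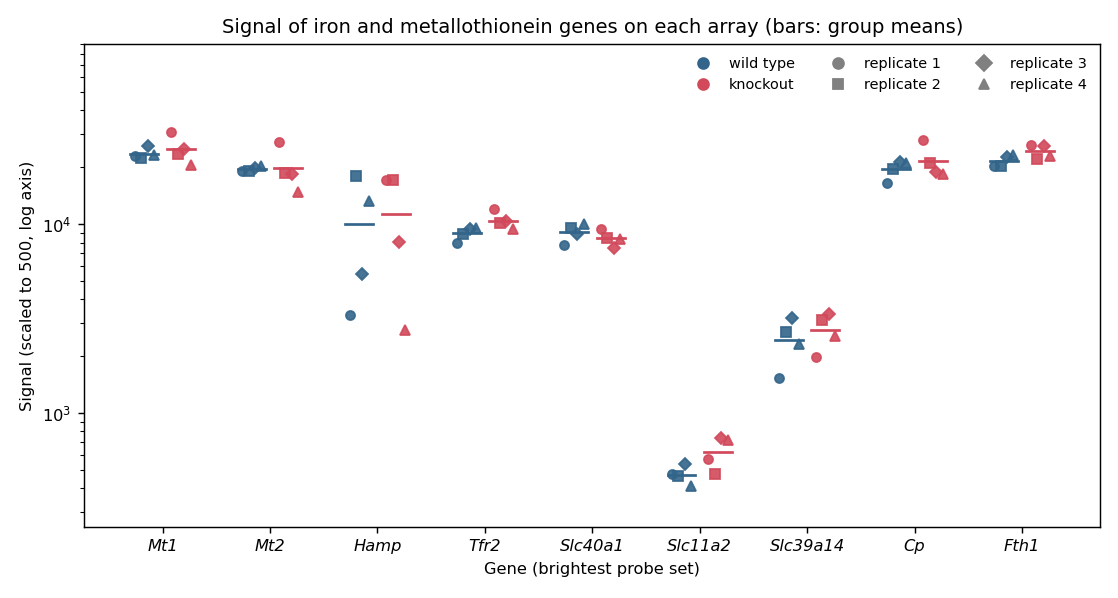
Signal (y axis, log scale) of the brightest probe set of each of the 9 genes (x axis) on the 4 wild-type (blue) and 4 knockout (red) arrays, with a bar at each group mean and a symbol per replicate number. Hamp spans 2742 to 18031 with both genotypes mixed, and in the other genes the groups lie close together and overlap.

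Of the 4 probe sets below the signal minimum, 2 were higher on every knockout than on every wild-type array, which held for 0.974% of the 24642 untested probe sets. A dim Slc11a2 probe set had 105, 79.0, 71.7 and 91.2 on the wild-type arrays and 143, 144, 142 and 135 in the knockout. A Cp probe set had 127, 81.5, 108 and 102 on the wild-type arrays and 235, 143, 147 and 138 in the knockout. Such low signals can be background, and with no filter on signal their log2 fold changes were 0.62 and 0.57 (limma adjusted p = 0.428 and 0.539).

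Genes around this system were counted in lists, each gene by its brightest tested probe set, and over all genes tested 46.5% lay above 0. Of 21 measured regulators of hepcidin 0 were called, 16 lay above 0 and the median was 0.10, with 0.28 in the first set and -0.05 in the second. Il6ra, the interleukin 6 receptor, had the smallest p of them, with means of 557 and 943 and a log2 fold change of 0.73 ± 0.15 (SE; limma adjusted p = 0.0712). The wild types ran from 535 to 601 and the knockouts from 762 to 1132, without overlap. Socs3, which restrains STAT3 signalling, stood at 0.78 ± 0.24 (limma adjusted p = 0.181; 1.24 and 0.32 by set), and Hjv, the BMP coreceptor hemojuvelin, at 0.41 ± 0.14 (limma adjusted p = 0.231). Bmp6 and Atoh8 were below the signal minimum.

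Of 19 measured genes of iron uptake, storage and heme transport 0 were called and 12 lay above 0 (median 0.05). Ncoa4, which delivers ferritin for breakdown, did not overlap between the groups: the wild types ran from 5937 to 7642 and the knockouts from 8658 to 13372 (log2 fold change 0.62 ± 0.15 SE; limma adjusted p = 0.106). Steap3, the reductase of the transferrin cycle, stood at -0.30 ± 0.17. Of 9 genes of iron sensing and heme breakdown 0 were called and 6 lay above 0 (median 0.08). Epas1, the hypoxia factor HIF2 alpha, had 2071 to 4341 in wild type and 5214 to 11088 in the knockout (log2 fold change 1.17 ± 0.27 SE; limma adjusted p = 0.0988), with 1.80 in the first set and 0.54 in the second. Blvrb, a biliverdin reductase abundant in red cells, stood at -0.54 ± 0.22, with -1.04 in the first set and -0.04 in the second. The erythroid markers had medians of -0.55 and 0.18 in these sets. The iron regulatory proteins Aco1 and Ireb2 stood at 0.08 ± 0.11 and 0.01 ± 0.19.

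Of 17 genes of iron-sulfur cluster assembly 0 were called, 5 lay above 0 and the median was -0.10. Fdx1, a ferredoxin, was lower on every knockout (3015 to 3542) than on every wild-type array (3558 to 4964), with a log2 fold change of -0.39 ± 0.13 (SE; limma adjusted p = 0.214). Bola3 stood at -0.39 ± 0.14, and the scaffold gene Iscu at 0.48 ± 0.19 (limma adjusted p = 0.282), with 0.81 in the first set and 0.16 in the second. On knockout 1 to 4 Iscu had signals of 6051, 5010, 3425 and 3357, where the pyruvate carboxylase 3'/5' ratios were 7.03, 4.93, 2.07 and 2.06. On the wild types Iscu stayed between 2887 and 3198 at ratios of 2.12 to 3.46. The part of RNA integrity in the Iscu values was not tested. Of 28 genes of zinc and copper handling 0 were called and 15 lay above 0 (median 0.02). Atp7a, a copper-exporting ATPase, came closest to the threshold: the wild types ran from 790 to 978 and the knockouts from 1324 to 1781 (log2 fold change 0.79 ± 0.14 SE; limma adjusted p = 0.0530). The metal sensor Mtf1 stood at -0.14 ± 0.20, the zinc exporter Slc30a1, another MTF1 target, at -0.003 ± 0.24 (0.43 and -0.44 by set), and the copper ATPase of hepatocytes, Atp7b, at -0.07 ± 0.16. Mtf1, Slc30a1, Atp7b, Aco1 and Ireb2 were chosen after their values were seen.

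Lists for 2 known inducers of these genes were read in the same way. Of 15 glucocorticoid targets 1 was called and 14 lay above 0 (median 0.69, with 1.12 in the first set and 0.34 in the second). The called gene was Ddit4, an inhibitor of mTOR signalling, at 1.96 ± 0.34 (SE; limma adjusted p = 0.0497), with 2.55 and 1.38 by set. Mt1 and Mt2, which glucocorticoids also induce, stood at 0.07 and -0.02 on probe sets close to the top of the array's range. Tat, the classic hepatic target, had 4878 to 6673 in wild type and 8501 to 24304 in the knockout (log2 fold change 1.33 ± 0.26 SE; limma adjusted p = 0.0674; 1.78 and 0.88 by set), and its highest array was knockout 1. Of 15 measured acute phase genes 0 were called and 12 lay above 0 (median 0.11, with 0.27 in the first set and -0.05 in the second), with Crp at 0.65 ± 0.17 (limma adjusted p = 0.132).

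Markers of the cells that a newborn liver holds were measured on the same arrays. Hepatocyte markers (11 of 12 measured, 11 above 0, 0 called) had a median of 0.11, with 0.34 in the first set and -0.08 in the second. Their summed signal ran from 201436 to 252533 in wild type and from 226582 to 304822 in the knockout. The medians of the 9 iron and metallothionein genes, 0.25 and -0.11, had the same signs in the sets. So had those of macrophage (0.39 and -0.17), endothelial (0.21 and -0.26) and stellate markers (0.16 and -0.27). Granulocyte (-0.09 and -0.36) and cholangiocyte markers (-0.10 and -0.03) lay below 0 in both sets. Erythroid markers (9 of 14 measured, 1 above 0, 0 called) had medians of -0.55 and 0.18, and their summed signal ran from 56384 to 70222 in wild type and from 49353 to 75109 in the knockout. The alpha globin gene Hba-a1 was below the signal minimum on the probe sets annotated to it alone. Probe sets annotated to several genes were left out, so the level of alpha globin mRNA is not shown here. For the macrophages, which recycle iron and express Slc40a1, 11 of 11 markers were measured, 6 lay above 0 and 0 were called, with sums of 25106 to 36988 in wild type and 26421 to 44952 in the knockout. Counts above 0 were 4 of 8 for endothelial, 3 of 7 for stellate, 1 of 2 for cholangiocyte and 2 of 8 for granulocyte markers, with 0 called. Krt7, Sox9 and Cftr of the bile ducts were below the signal minimum. The part of cell makeup in the values above was not tested.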

How the data were processed

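The deposited values are signal intensity on a linear scale, made by the authors with GCOS 1.2 at default settings with every array's signal brought to 500 over all probe sets, per the labels. The median signal of an array ran from 147 to 175. Of 45101 probe sets, 64 controls were left out, and 34945 had 1 gene in the platform annotation, updated by Entrez identifier to RefSeq symbols. Groups came from the sample titles. Log2(signal + 16) was fitted where 4 or more arrays reached 200, with limma 3.58.1 in R 4.3.3 (lmFit, then eBayes allowing for an intensity trend; two-sided tests), and p-values were adjusted by Benjamini-Hochberg over all 20395 probe sets tested. The fit was tested on simulated data. A gene stands for its brightest tested probe set. Named genes are all members, up to 4 per list by smallest p, and the 5 most like Mt1 and Hamp. Id1, Smad6, Smad7, Hamp2 and others noted in the text were added. Members and lists were chosen with earlier results of these data known. Alternatives were other pseudocounts, filters, scalings, limma settings, blocks and left-out arrays. Python 3.11.15 and matplotlib 3.10.9 were used. Since no label places the pups in separate litters, p-values measure the spread between these livers only.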

Additional observations from a re-analysis of the deposited data

Results flagged for a closer look

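Each value here lay apart from the other 3 arrays of its group, with a gap to its nearest neighbour that exceeded Dixon's 95% critical value as a share of the group's range. Of 60 groups of 4 arrays examined, 6 had such an array, where chance flags about 1 in 20. The 6 include Xist and Eif2s3y, which were measured to check the sex label. Probe sets of the same gene are not independent, so the count is no test of an excess. Wild type 2 had 408 on 1 Slc11a2 probe set, against 596 to 623 on the other wild types. Wild type 1 had 11092 on a Cp probe set, against 14387 to 14729. Knockout 3 had 164 on a Slc39a14 probe set below the signal minimum, against 98.5 to 106, and knockout 1 had 235 on a Cp probe set below it, against 138 to 147. Wild type 4 had 10506 for Xist and 1.3 for Eif2s3y, against its male label. None of the 4 probe sets of Slc11a2, Cp and Slc39a14 stands for its gene in the comparisons above.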

How the results depend on the processing

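Under all 22 other fits, 0 of the probe sets of these genes were called, with 0 to 4 at an unadjusted p under 0.05. The count over all probe sets, 61 in the report, was 21 with no filter, 107 at a signal minimum of 500, 18 with no intensity trend, 749 with array weights, 184 with the sets of replicates as a block, 154 with that block and without wild type 4, 30 in the first set alone and 2 in the second alone, and it ran from 2 to 334 when 1 array was left out. The replicate number as a block gave 56 calls and changed no call among these genes. Slc39a14, higher on the knockout array of each number, had a limma adjusted p of 0.415 with that block. Same-numbered arrays had correlated deviations of 0.218, 0.404, 0.339 and 0.051, and replicates 1 and 2 matched best with their own number. Since 1 of the 4 was under 0.1 and no label pairs the samples, the numbers were not used as pairs. Of 215 values for single genes, 195 kept their sign and stayed above the threshold, and 20 changed sign. Those were Mt1 at -0.11 in the second set and -0.16 by its other probe set, Mt2 at 0.057 by median centring, 0.23 in the first set and 0.033 without wild type 4 with the sets of replicates as a block, and Hamp at -0.44 with array weights, -0.85 in the second set and -0.20 with the pyruvate carboxylase ratio as a covariate. Slc40a1 stood at 0.050 in the first set, Slc11a2 at -0.11 by its next probe set, and Cp at -0.062 with array weights and -0.19 in the second set. With 1 array left out, Mt1 ran from -0.035 to 0.15, Mt2 from -0.19 to 0.10, Hamp from -0.28 to 0.72, Slc39a14 from -0.0058 to 0.35 and Cp from -0.0080 to 0.19. Other filters on signal, no intensity trend, blocks fitted over all arrays and the exact test leave a gene's fold change as it was. Those values are among the 195 and could not change sign. Tfr2 and Fth1 lay above 0 in every setting. The cause was not tested.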
